A study of Homo sapiens with 6 samples.

Results

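Amino acids enter and leave human cells through membrane carriers of the solute carrier (SLC) gene families, and 6 of these families were examined: SLC1, SLC3, SLC7, SLC36, SLC38 and SLC43. All protein-coding genes whose symbol carries one of these family names and a member number were taken, which gave 40 genes of the 19906 protein-coding genes used. They comprised 7 genes of SLC1, 2 of SLC3, 13 of SLC7, 4 of SLC36, 11 of SLC38 and 3 of SLC43.

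As background, several SLC7 carriers are light chains that reach the cell surface only when bound by a disulfide bridge to a heavy chain of the SLC3 family, and they exchange one amino acid for another. SLC1 and surface SLC38 carriers use the sodium gradient to accumulate glutamate, glutamine, alanine or serine, and the exchangers then trade these for leucine, arginine or cystine. Many of the genes are known targets of the amino acid response, in which shortage or stress raises the transcription factor ATF4, which binds with C/EBP partners to an element of the form TGATGNAA.

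The cells came from the human induced pluripotent stem cell line Ff-I01s01, of wild-type (WT) genotype, and are labelled as pancreatic progenitor cells derived from it. In the step called S3, from day 6 to day 8, they were cultured with no K-3 in 3 Control libraries and with 2 µM K-3 in 3 others. K-3 is a code name about which the labels give nothing further, and the stated question was its effect on differentiation, read from the transcriptome at the progenitor stage. All libraries come from 1 line, and no label places the libraries of a group in separate cultures, so each p-value reflects variation among these 6 libraries only and may be technical in origin.

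Poly(A) RNA was read as deposited FPKM, a fragment count corrected for gene length and sequencing depth, with 35334645 to 38773637 fragments per Control library and 41839266 to 50199369 per K-3 library. The 12968 genes tested were those averaging 1 FPKM or more; 152 of them were called higher with K-3 and 118 lower (limma on log2(FPKM + 1), Benjamini-Hochberg adjusted p under 0.05, two-sided). The balance depends on scaling, since rescaling without mitochondrial-encoded genes gave 117 higher and 152 lower. The pancreatic progenitor markers summed to 497 to 534 FPKM in Control and 555 to 577 with K-3, and NKX6-1 was at 0 in all libraries. Of these markers, 10 of 12 were tested and 0 passed. At an unadjusted p under 0.05, 4 were higher and 1 was lower, against 11.7% and 10.4% of all tested genes. In voom over genes with at least 10 fragments, 448 of all 25276 genes passed as higher and 506 as lower. Among them PDX1, GATA4, SOX9 and FOXA2 passed as higher (adjusted p = 0.00389, 0.0131, 0.035 and 0.0443). PROX1 passed as lower in that voom fit (adjusted p = 0.0197). Hepatic markers summed to 2725 to 3034 and 2632 to 2783 FPKM, endothelial and blood markers to at most 0.192 FPKM in any library. Neural markers summed to 7.9 to 8.5 FPKM in Control and 8.0 to 8.8 with K-3. Most of that was NES (7.65 ± 0.30 and 7.90 ± 0.38 FPKM), the only one tested, which did not pass. Of the pluripotency markers, LIN28A had 357 ± 19 and 348 ± 2.9 FPKM and DPPA4 10.97 ± 0.079 and 11.2 ± 0.31, while the core factors POU5F1, SOX2 and NANOG had means of at most 0.233 FPKM; 0 of 2 tested passed. Intestinal markers summed to 33.6 to 38.9 FPKM in Control and 39.5 to 41.5 with K-3, with 0 of 2 tested past the threshold and 1 higher at an unadjusted p under 0.05. That gene, CDX2, had 6.81, 10.9 and 5.31 FPKM in Control and 14.4, 13.0 and 12.9 with K-3 (a log2 fold change of 0.78 with adjusted p = 0.0928, and 0.00709 in voom over genes with at least 10 fragments). Mesenchymal markers summed to 52.1 to 87.2 FPKM in Control and 94.5 to 100.2 with K-3, with 0 of the 3 tested genes past the threshold and 1 higher at an unadjusted p under 0.05. That gene, VIM, had 38.6, 61.6 and 28.97 FPKM in Control and 73.1, 71.7 and 70.1 with K-3 (a log2 fold change of 0.79 with adjusted p = 0.118, and 0.0131 in the same voom fit). In both genes Control replicate 2 was the Control library nearest to K-3, and the part of such cells in the results below was not tested. In bulk RNA of this kind, fewer cells of a type and less RNA per cell cannot be told apart.

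Among the 40 transporters, 24 reached the mean of 1 FPKM and were tested, SLC7A11 only through its Control level. The counts that follow describe the 24 and not the 40. The families were chosen with earlier results of these data known, so these shares are no independent support. With K-3, 3 of them fell: the cystine and glutamate exchanger SLC7A11, the arginine and lysine carrier SLC7A1 and the exchanger of arginine against neutral amino acids SLC7A7. That is 12.5% of those tested, where 0.91% of all tested genes were called lower. None of the 24 was called higher, where 1.17% of all tested genes were. At an unadjusted p under 0.05, 13 of 24 members were lower, or 54.2%, against 10.4% of all tested genes, and 0 were higher, against 11.7%. The 3 K-3 values lay below the 3 Control values in 12 of 24 members, against 12% of all tested genes, and above them in 0, against 15.4%. The log2 fold change was negative in 18 of 24 members, against 45.4% of all tested genes, and its median was -0.12, against 0.01.

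The number of calls rests on few libraries and on the setting. Without Control replicate 3 only SLC7A11 passed, and without Control replicate 2, which had the lowest Control value in 12 of the 13 members with an unadjusted p under 0.05, 8 passed. The 8 were SLC7A11, SLC7A1, SLC7A7, SLC3A2, SLC7A5, SLC7A8, SLC1A5 and SLC38A2. Over all genes, those fits called 10 of 12915 and 229 of 12904 lower, in that order. Without K-3 replicate 1, 2 or 3 in turn, 0 passed in limma. Over all genes, these fits called 5, 0 and 3 lower. With no filter on low values 0 of 38 tested members passed. With limma voom on the whole fragments recovered from the FPKM, 9 passed as lower and 0 as higher. Beside the 3 of the main fit, these were SLC3A2, SLC7A5, SLC1A5, SLC38A1, SLC38A2 and SLC43A1. The same 9 passed with protein-coding genes only. With no filter 0 of all 35413 genes passed, and with voom 398 of all 12968 genes passed as lower and 412 as higher. With protein-coding genes only, 285 of 11172 passed as lower and 402 as higher. Below, passing refers to the main fit unless another is named. The 13 members themselves had a negative log2 fold change in each of these fits. They were chosen by their p in the same libraries that these fits reuse, so the shared sign is no independent support.

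**Figure D1:**
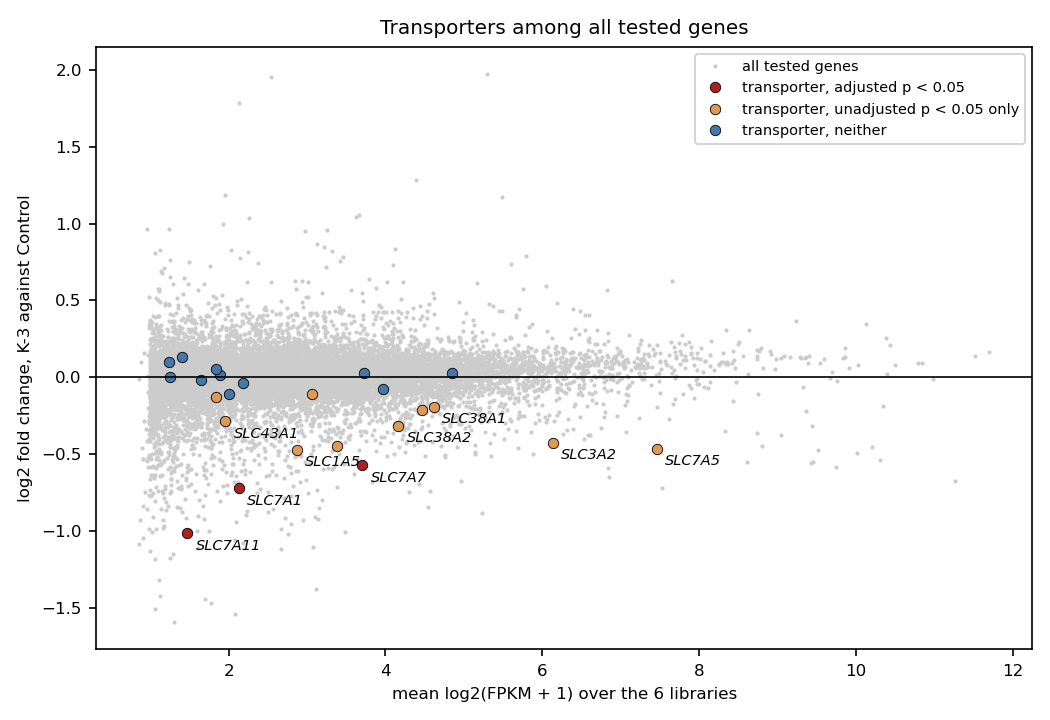
Log2 fold change of K-3 against Control (vertical axis) against the mean log2(FPKM + 1) over the 6 libraries (horizontal axis) for the 12968 tested genes (grey) and the 24 tested transporters (coloured by test result; names are given at an unadjusted p under 0.01). The 3 transporters past the threshold (red) and the 10 with only an unadjusted p under 0.05 (orange) all lie below 0, and the 11 others (blue) lie close to 0, within -0.11 and 0.13.

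The element TGATGNAA was searched on both strands from 250 bases before to 50 bases after each annotated transcript start, using the RefSeq promoter sequences of build GRCh38.p14. It occurred in 6 of the 31 members that have such a sequence, or 19.4%, against 1212 of all 27195 genes in the table, or 4.46%. Among tested genes it occurred in 5 of 20 members, or 25%, against 227 of 9221 genes, or 2.46%. Counted by window, it was in 6 of 53 member windows (11.3%) and in 3.62% of all 34961 windows. SLC1A2, SLC3A1, SLC7A2, SLC7A3, SLC7A4, SLC7A11, SLC7A13, SLC38A3 and SLC43A3 had no window in the table. All 6 matches are shown, with the 8 matching letters in capitals, 5′ to 3′ on the gene's strand. Of these genes SLC7A1 passed the test, SLC1A5, SLC38A1, SLC3A2 and SLC1A3 did not, and SLC1A4 was not tested. SLC1A3 had a log2 fold change of 0.10, while SLC1A5, SLC38A1 and SLC3A2 were lower at an unadjusted p under 0.05. SLC7A7, which passed, had a sequence without a match, as had SLC7A5 and SLC38A2. A match describes these letters only.
SLC7A1: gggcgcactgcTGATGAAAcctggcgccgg
SLC1A5: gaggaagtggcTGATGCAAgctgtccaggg
SLC38A1: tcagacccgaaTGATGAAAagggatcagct
SLC3A2: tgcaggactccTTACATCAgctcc
SLC1A4: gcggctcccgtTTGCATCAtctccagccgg
SLC1A3: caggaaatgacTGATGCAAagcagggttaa

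In SLC7A1 the stretch is chr13:29595663-29595692 (minus strand), with the match in non-coding exon sequence. In SLC1A5 it is chr19:46784893-46784922 (minus strand), with the match also in a non-coding exon. For SLC38A1 it is chr12:46266502-46266531 (minus strand). There the match lies in an intron of the longer gene model and starts 4 bases before a RefSeq transcript start. The matches of SLC3A2 at chr11:62881725-62881748 and of SLC1A4 at chr2:64989381-64989410 (both genes on the plus strand) are on the opposite strand, so the capitals show the reverse complement of the element. The stretch of SLC1A3 at chr5:36596357-36596386 (plus strand) lies outside the annotated gene.

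SLC3A2 encodes the heavy chain (CD98, or 4F2hc) that carries 6 of the light chains to the cell surface; gene ENSG00000168003 lies at chr11:62856102-62888875 on the plus strand of GRCh38. It had 86.3, 70.9 and 84.4 FPKM in Control replicates 1, 2 and 3 and 56.4, 57.4 and 64.8 with K-3. All K-3 libraries lay below all Control libraries, but the difference did not pass (80.5 ± 8.4 against 59.5 ± 4.6 FPKM, SD, n = 3 each; log2 fold change -0.43, SE 0.09, adjusted p = 0.0585). The adjusted p of SLC3A2 was 0.0121 in voom on recovered fragments and 0.216 with no filter. The other heavy chain, SLC3A1, partner of the renal cystine carrier SLC7A9, was nearly absent, with 7 fragments in all Control and 2 in all K-3 libraries, and shares 29.4% of its exon bases with PREPL on the opposite strand.

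SLC7A5 (LAT1), the main light chain for leucine and other large neutral amino acids, was the most abundant of the 40 transporters (ENSG00000103257, chr16:87830023-87869488, minus strand). It had 223, 178 and 219 FPKM in Control and 134, 144 and 171 with K-3. The highest K-3 library lay just under the lowest Control library, and the difference did not pass (207 ± 25 against 149 ± 19 FPKM; log2 fold change -0.47, SE 0.12, adjusted p = 0.0861). The adjusted p of SLC7A5 was 0.0224 in voom on recovered fragments and 0.276 with no filter. Part of its sequence is copied in the pseudogene SLC7A5P1, listed at 9.46 ± 0.26 and 10.03 ± 1.3 FPKM, so a small part of either value could belong to the other.

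SLC7A8 (LAT2), a second light chain for neutral amino acids, had 13.4, 8.38 and 12.5 FPKM in Control and 7.34, 7.61 and 8.97 with K-3. Control replicate 2 fell within the K-3 range, so the groups overlapped (log2 fold change -0.45, SE 0.16, adjusted p = 0.16; without Control replicate 2 it passed). SLC43A1 (LAT3), which moves the same substrates by facilitated diffusion with no heavy chain, had 3.29, 3.26 and 3.33 FPKM in Control and 2.64, 2.25 and 2.67 with K-3. Its Control libraries were nearly equal and all above the K-3 libraries (log2 fold change -0.29, SE 0.06, adjusted p = 0.0618). The adjusted p of SLC43A1 was 0.0373 in voom on recovered fragments and 0.212 with no filter. Its relative SLC43A2 (LAT4) had 2.52 ± 0.18 and 2.65 ± 0.17 FPKM with overlapping groups. The 4 genes together summed to 224 ± 28 FPKM in Control and 163 ± 20 with K-3, 72.6% of the Control level, with no overlap.

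SLC7A7 is the light chain (y+LAT1) that exports arginine and lysine in exchange for sodium and neutral amino acids, and its loss causes lysinuric protein intolerance; the gene is ENSG00000155465 at chr14:22773222-22829820 on the minus strand. It had 15.4, 13.8 and 15.5 FPKM in Control and 9.23, 9.89 and 9.97 with K-3. Both groups were tight and far apart, and it fell from 14.9 ± 0.94 to 9.70 ± 0.40 FPKM (SD, n = 3 each; log2 fold change -0.57, SE 0.06, adjusted p = 0.0169). Its adjusted p was 0.0594 without Control replicate 3, and 0.077, 0.0833 and 0.0809 without K-3 replicates 1, 2 and 3 in turn. SLC7A6 (y+LAT2), which carries out the same exchange in most tissues, had 2.81, 2.65 and 2.73 FPKM in Control and 2.39, 2.35 and 2.48 with K-3. The groups did not overlap but the difference was small and did not pass (log2 fold change -0.13, SE 0.05, adjusted p = 0.189), and 44.4% of its exon bases are shared with SLC7A6OS, which runs on the other strand, and the value of SLC7A6 is uncertain for that reason. SLC7A9 was below the level tested, at 0.518 ± 0.021 and 0.487 ± 0.076 FPKM.

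**Figure D2:**
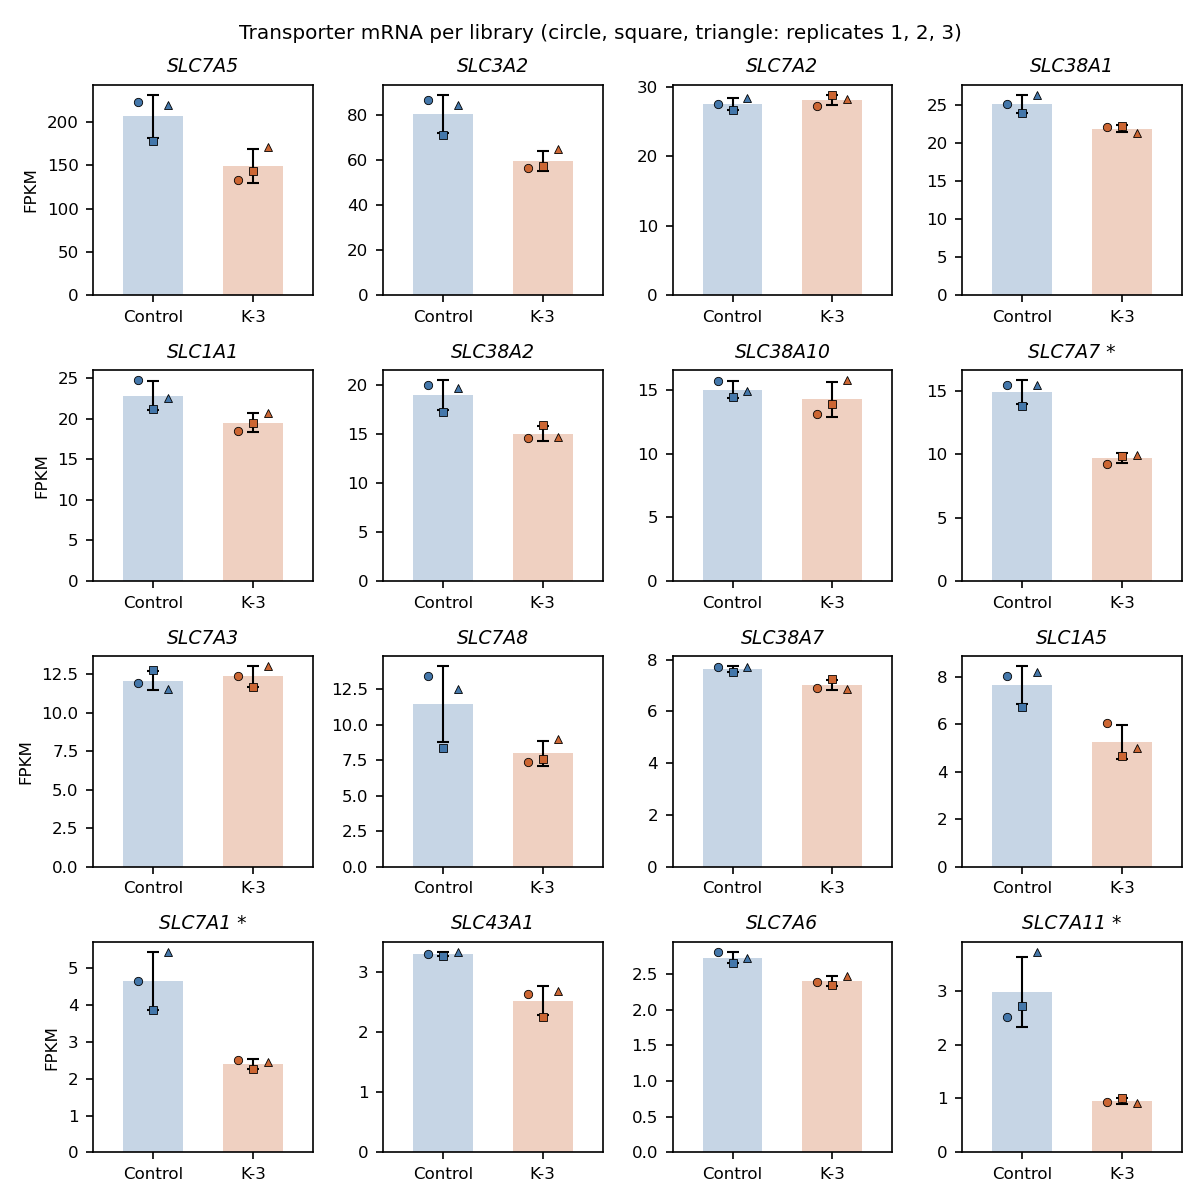
FPKM (vertical axis, linear from 0) in each Control and K-3 library for the 16 transporters described in full, with bars for group means and error bars for the SD (n = 3 libraries); an asterisk marks an adjusted p under 0.05. The K-3 libraries lie below all Control libraries in most panels, while SLC7A2, SLC7A3, SLC7A8 and SLC38A10 overlap.

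SLC7A1 (CAT1), the widespread carrier of arginine, lysine and ornithine, works without a heavy chain (ENSG00000139514, chr13:29509410-29595688, minus strand). It had 4.64, 3.86 and 5.44 FPKM in Control and 2.49, 2.25 and 2.45 with K-3. Every K-3 library lay well below the lowest Control library, and it fell from 4.65 ± 0.79 to 2.40 ± 0.13 FPKM, 51.6% of the Control level (log2 fold change -0.72, SE 0.10, adjusted p = 0.0268). It did not pass when Control replicate 3 was left out (adjusted p = 0.0664), nor without K-3 replicate 1, 2 or 3 (0.092, 0.117 and 0.0959). The match to the element shown above starts at base 8 of its transcript, counting the transcript start as base 1.

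The related cationic carriers SLC7A2 and SLC7A3 gave no call. SLC7A2 (CAT2), an inducible arginine carrier abundant in liver, had 27.6, 26.7 and 28.5 FPKM in Control and 27.3, 28.9 and 28.3 with K-3 (log2 fold change 0.03, 95% interval -0.07 to 0.13, adjusted p = 0.72). SLC7A3 (CAT3) had 11.9, 12.7 and 11.5 FPKM in Control and 12.4, 11.7 and 13.0 with K-3 (log2 fold change 0.03, 95% interval -0.10 to 0.16, adjusted p = 0.787). Both had overlapping groups, and both intervals lie above that of SLC7A1, -0.96 to -0.49, although the difference between the genes was not tested. Since SLC7A2 and SLC7A3 made up most of the cationic group, its sum with K-3 was 96.9% of the Control level, 44.4 ± 1.1 FPKM, and the groups overlapped. SLC7A4 and SLC7A14, relatives without settled arginine transport, had means of at most 0.0956 FPKM in either group.

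SLC7A11 (xCT) imports cystine in exchange for glutamate and so supplies cysteine for glutathione (ENSG00000151012, chr4:138164097-138242349, minus strand). It had 2.50, 2.71 and 3.72 FPKM in Control and 0.931, 1.01 and 0.918 with K-3. The K-3 libraries were nearly equal and the Control libraries spread, with replicate 3 the highest. It fell from 2.98 ± 0.65 to 0.953 ± 0.050 FPKM, 32.0% of the Control level (log2 fold change -1.01, SE 0.11, adjusted p = 0.0189). It still passed without any one Control library, and without K-3 replicate 1, 2 or 3 its adjusted p was 0.0788, 0.0916 and 0.0809. That scale understates the change of a low gene: on recovered fragments, 3226 in Control and 1251 with K-3, the log2 fold change was -1.62. The antisense gene SLC7A11-AS1, which shares 9.0% of its exon bases, had 0.0579 and 0.0153 FPKM.

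Of the glutamate carriers of SLC1, SLC1A1 (EAAT3), which also takes up cysteine, had 24.8, 21.3 and 22.6 FPKM in Control and 18.5, 19.4 and 20.7 with K-3. The groups lay close without overlapping and the difference did not pass (log2 fold change -0.21, SE 0.07, adjusted p = 0.126). SLC1A3 (EAAT1), known best from glia, had 0.882, 2.13 and 1.02 FPKM in Control and 1.80, 1.26 and 1.30 with K-3. It was high in Control replicate 2 alone among the Control libraries, the groups overlapped, and its interval was wide (-0.36 to 0.55). SLC1A2, SLC1A6 and SLC1A7, mainly of nerve cells and retina, had means of at most 0.196 FPKM in either group.

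SLC1A5 (ASCT2), the sodium-dependent exchanger of glutamine, serine and alanine, had 8.02, 6.73 and 8.20 FPKM in Control and 6.06, 4.67 and 4.999 with K-3. All K-3 libraries lay below all Control libraries, and the difference did not pass (7.65 ± 0.80 against 5.24 ± 0.73 FPKM; log2 fold change -0.47, SE 0.10, adjusted p = 0.0589). The adjusted p of SLC1A5 was 0.0176 in voom on recovered fragments and 0.219 with no filter. The closely related SLC1A4 (ASCT1), a serine and alanine exchanger, lay under the level tested, with 0.966, 0.668 and 0.958 FPKM in Control and 0.553, 0.599 and 0.619 with K-3. Those groups did not overlap either, at 68.3% of the Control level, close to the 68.6% of SLC1A5; voom over all genes with at least 10 fragments gave SLC1A4 a log2 fold change of -0.53 (adjusted p = 0.0867). Both genes hold a match to the element shown above.

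**Figure D3:**
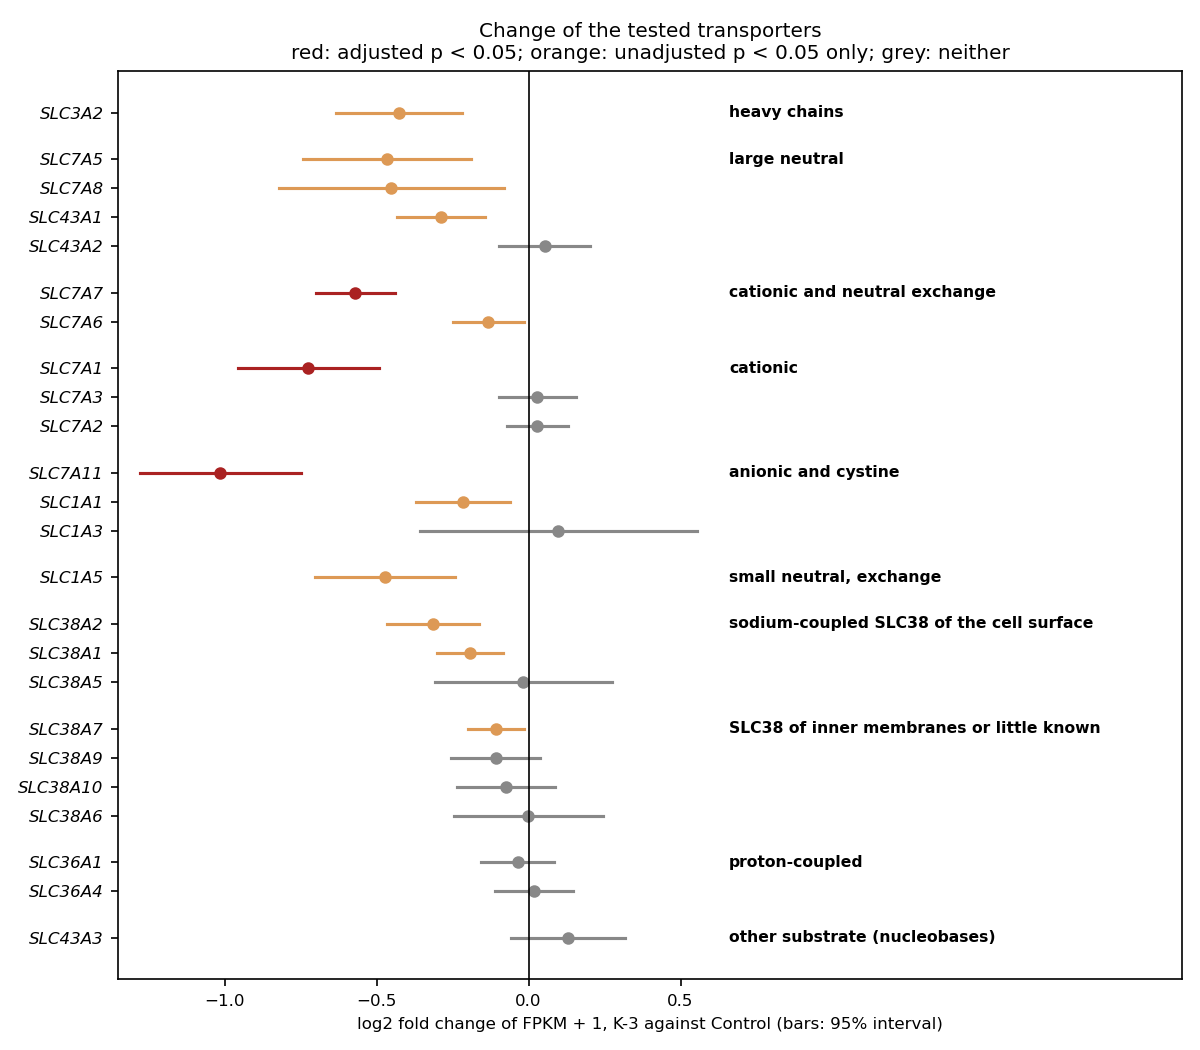
Log2 fold change of FPKM + 1, K-3 against Control, with its 95% interval, for the 24 tested transporters in groups by substrate (red, adjusted p under 0.05; orange, unadjusted p under 0.05 only; grey, neither). Within the cationic group SLC7A1 stands at -0.72 and SLC7A2 and SLC7A3 at 0.03, and the proton-coupled and inner-membrane carriers lie near 0.

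The sodium-coupled SLC38 carriers of the cell surface concentrate glutamine and alanine in the cell. SLC38A1 (SNAT1) had 25.1, 24.0 and 26.4 FPKM in Control and 22.1, 22.3 and 21.4 with K-3. SLC38A2 (SNAT2), whose synthesis is known to rise when amino acids are short, had 20.0, 17.3 and 19.7 FPKM in Control and 14.6, 15.9 and 14.7 with K-3. In both genes all K-3 libraries were under all Control libraries, and neither passed (SLC38A1 log2 fold change -0.19, SE 0.05, adjusted p = 0.079; SLC38A2 -0.31, SE 0.06, adjusted p = 0.0585). In voom on recovered fragments their adjusted p was 0.0387 and 0.0149, in that order, and with no filter 0.212 and 0.208. SLC38A5, a glutamine and histidine carrier, had 1.62 to 2.78 FPKM in Control and 2.06 to 2.23 with K-3, overlapping fully. The other surface genes were low: SLC38A3 at 0.551 ± 0.018 and 0.598 ± 0.10 FPKM, SLC38A4 with 22 and 13 fragments over all libraries of a group, and SLC38A8 with 2 and 5.

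Carriers of the lysosome and other inner membranes showed small differences. SLC38A7, which exports glutamine and asparagine from lysosomes, had 7.71, 7.52 and 7.70 FPKM in Control and 6.92, 7.26 and 6.88 with K-3. The groups did not overlap, but the difference did not pass (log2 fold change -0.11, SE 0.04, adjusted p = 0.172). SLC38A10, a Golgi-associated and little characterised relative, had 15.7, 14.5 and 14.9 FPKM in Control and 13.1, 13.9 and 15.8 with K-3, with the highest value in a K-3 library. SLC38A9, the lysosomal arginine sensor of the mTORC1 pathway, had 3.19 ± 0.20 and 2.89 ± 0.21 FPKM (log2 fold change -0.11, adjusted p = 0.351). SLC38A6 had 1.40 ± 0.29 and 1.39 ± 0.14 FPKM, and SLC38A11 was under 0.1 FPKM in every library.

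The proton-coupled carriers SLC36A1 (PAT1), which releases small amino acids from lysosomes, and SLC36A4 (PAT4) had overlapping groups. SLC36A1 had 3.60 ± 0.036 and 3.49 ± 0.21 FPKM (log2 fold change -0.04, 95% interval -0.15 to 0.08). SLC36A4 had 2.69 ± 0.17 and 2.73 ± 0.034 FPKM (log2 fold change 0.02, 95% interval -0.11 to 0.15). SLC36A2 had 1 fragment in all, and SLC36A3 and the renal light chain SLC7A13 had none in any library. A count of 3 fragments, the limit that a count of 0 allows, would be 0.0129 to 0.0182 FPKM for SLC36A3 and 0.0263 to 0.0371 FPKM for SLC7A13, depending on the library. SLC43A3, which despite its family carries nucleobases, had 1.53 ± 0.11 and 1.77 ± 0.22 FPKM with overlapping groups. It shares 29.9% of its exon bases with AP000781.2 on the same strand, and its value is uncertain for that reason.

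**Figure D4:**
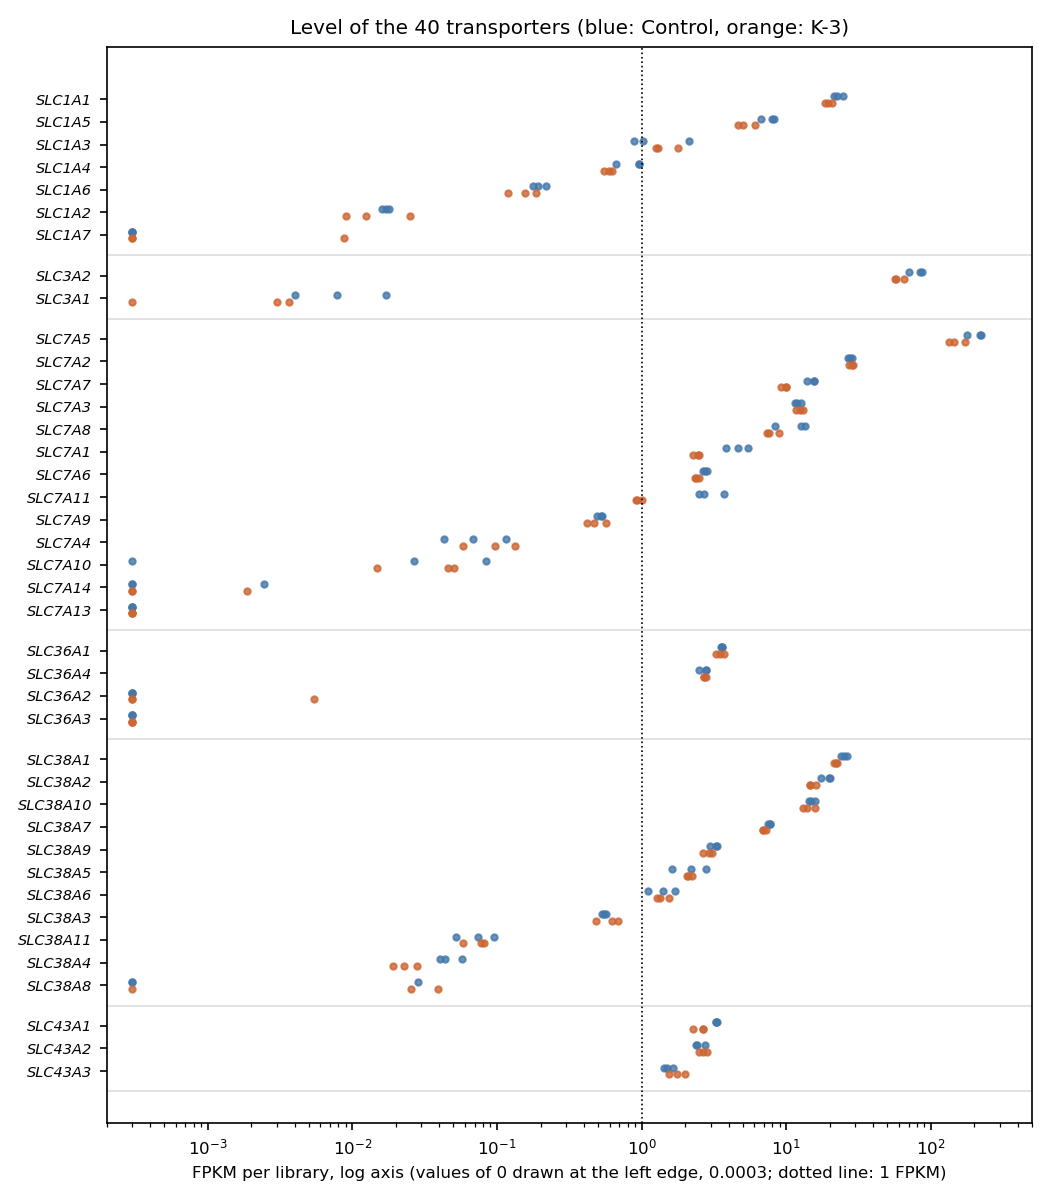
FPKM in each library (horizontal log axis; values of 0 drawn at the left edge) for the 40 transporters by family, Control in blue and K-3 in orange, with a dotted line at 1 FPKM. SLC7A5 and SLC3A2 lead, 9 members exceed a mean of 10 FPKM, and 12 lie under 0.1 FPKM.

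Summed over the 40 genes, transporter messenger RNA was 512, 436 and 507 FPKM in Control and 357, 371 and 409 with K-3, or 78.1% of the Control level. SLC7A5 and SLC3A2 held most of it; the 38 others summed to 198 ± 8.9 FPKM in Control and 170 ± 3.1 with K-3, 86.0% of Control. By family, the sum with K-3 was 73.9% of Control in SLC3, 75.4% in SLC7, 82.0% in SLC1 and 87.9% in SLC38, without overlap of the groups. In SLC43 (94.5%) and SLC36 (98.9%) the groups overlapped.

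The 6 light chains that pair with SLC3A2 summed to 239 ± 29 FPKM in Control and 170 ± 21 with K-3, and their ratio to SLC3A2 was 2.96 ± 0.058 and 2.86 ± 0.13, with overlap. Within the light chains, SLC7A5 made up 86.6% ± 0.14 in Control and 87.6% ± 0.74 with K-3. SLC7A11 made up 0.972%, 1.32% and 1.46% in Control and 0.607%, 0.614% and 0.475% with K-3, so its share was lower in every K-3 library. The shares of SLC7A6, SLC7A7, SLC7A8 and SLC7A10 overlapped between the groups; SLC7A10, the light chain of nerve cells for small neutral amino acids, had a mean of 0.0371 FPKM with K-3.

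**Figure D5:**
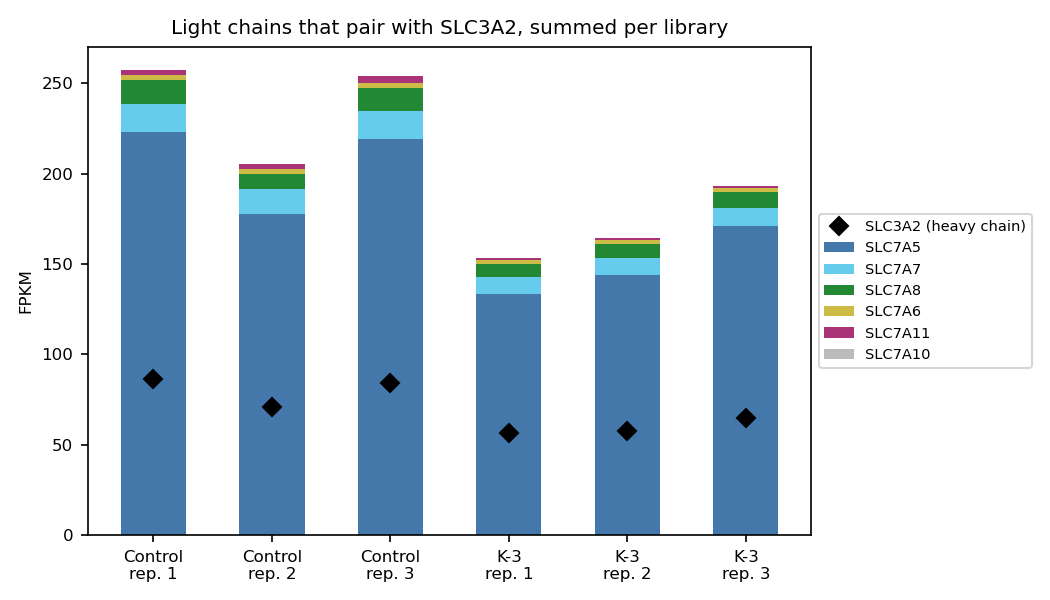
Stacked FPKM of the 6 light chains in each library (bars from 0) and FPKM of their heavy chain SLC3A2 (diamonds), without error bars because each bar is 1 library. The stacks reach 205 to 257 FPKM in Control and 153 to 193 with K-3, and SLC7A5 fills most of each.

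Other genes of amino acid handling were compared as lists. The lists too were chosen with earlier results of these data known, so their shares are no independent support. Among 21 genes of the amino acid response apart from transporters, 17 were tested, 8 fell and 0 rose, where 0.91% of all tested genes were called lower and 1.17% higher. At an unadjusted p under 0.05, 13 of the 17 were lower, against 10.4% of all tested genes. The 8 were CHAC1, DDIT4, MTHFD2, PSAT1, ATF4, SESN2, PCK2 and DDIT3. Not all genes of the list were lower: PHGDH and EIF2AK4 had log2 fold changes of 0.06 and 0.08, and TRIB3 of -0.05 (adjusted p = 0.457, 0.302 and 0.731). CHAC1, which degrades glutathione, was at 2.58 ± 0.24 FPKM in Control but 0.333 ± 0.10 under K-3, so that it reached the tested level only through Control (log2 fold change -1.42, adjusted p = 0.00733). MTHFD2, of mitochondrial folate metabolism, had 11.5 ± 1.7 and 4.78 ± 0.44 FPKM (log2 fold change -1.11, adjusted p = 0.0169). DDIT4, an inhibitor of mTORC1 signalling, fell from 9.71 ± 0.59 FPKM in Control to 4.63 ± 0.52, a log2 fold change of -0.93 (adjusted p = 0.0161). PSAT1, an enzyme of serine synthesis, fell from 30.2 ± 3.4 FPKM in Control to 16.3 ± 0.97, a log2 fold change of -0.84 (adjusted p = 0.0169). ATF4 itself, singled out after its values were seen, had 116, 106 and 108 FPKM in Control and 84.0, 84.8 and 84.3 with K-3 (log2 fold change -0.38, SE 0.05, adjusted p = 0.0253), so that every K-3 library was lower. The list's median log2 fold change was -0.38, against 0.01 over all tested genes.

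The remaining lists had few calls. For comparison, 0.91% of all tested genes were called lower and 1.17% higher, and at an unadjusted p under 0.05, 10.4% were lower and 11.7% higher. For NRF2, the oxidative stress factor that also drives SLC7A11, a list of 13 genes held targets together with NFE2L2 and KEAP1. Of these, 12 were tested and 0 passed in limma (at an unadjusted p under 0.05, 1 was higher and 0 were lower). The higher gene was TXNRD1, rising from 51.5 ± 3.25 FPKM in Control to 59.2 ± 1.18 without overlap (adjusted p = 0.102). TXNRD1 passed as higher in voom over genes with at least 10 fragments (adjusted p = 0.0288). That fit called 448 of all 25276 genes higher and 506 lower. Among the tested genes the groups were also apart in KEAP1 (higher) and ME1 (lower). NFE2L2, which encodes NRF2, was at 24.6 ± 0.72 and 24.5 ± 0.65 FPKM. The NRF2 target GCLM, a subunit of the enzyme that starts glutathione synthesis, was at 4.46 ± 0.25 and 4.49 ± 0.21. NFE2L2 and GCLM were picked after their values were seen. Any part of NRF2 in the fall of SLC7A11 was not tested. Of 24 tested genes of lysosomal amino acid sensing, 1 fell, the leucine sensor SESN2, from 11.3 ± 1.3 FPKM in Control to 7.12 ± 0.46, a log2 fold change of -0.60 (adjusted p = 0.0268). SESN2 belongs to both lists and was already counted in the amino acid response above. At an unadjusted p under 0.05, 3 genes of the lysosomal sensing list were higher (NPRL3, SESN3 and MLST8) and 2 were lower, SESN2 among them. Both counts are near the shares over all tested genes. NPRL3 and SESN3 passed as higher in voom over genes with at least 10 fragments (adjusted p = 0.0456 and 0.035). SESN2 passed as lower in that fit (adjusted p = 0.000803). Of 7 tested mitochondrial amino acid carriers 1 fell, the basic amino acid carrier SLC25A29, from 20.5 ± 1.7 FPKM in Control to 16.1 ± 0.35, a log2 fold change of -0.33 (adjusted p = 0.0491). Of 5 tested transporters of other plasma membrane and vesicle families 0 passed, and at an unadjusted p under 0.05 SLC6A9, a glycine carrier, and CTNS, the lysosomal cystine exporter, were lower, SLC6A9 having reached the tested level only through Control (1.56 ± 0.31 against 0.775 ± 0.10 FPKM). In voom over genes with at least 10 fragments, SLC6A9 passed as lower (adjusted p = 0.00447) and CTNS did not pass (0.0853).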

How the data were processed

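The authors deposited 1 table of FPKM, with the length and position of each gene. The submitters' processing notes name the build GRCh38 and the tools DESeq2 1.20.0, HISAT2 2.0.5 and featureCounts 1.5.0-p3, but no settings. The labels' protocols describe poly-T selection, random hexamers, paired-end reads and both directional and non-directional libraries, so reads of overlapping genes on opposite strands cannot be told apart. Groups and replicate numbers came from the sample titles. Positions of the 58217 genes used equal GENCODE release 29, and genes of chromosome Y were left out. FPKM times length gave whole fragments for 100% of values within 1e-06. Limits from a count of 3 fragments cover counting error only.

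Genes averaging 1 FPKM or more over the 6 libraries were tested with limma 3.58.1 (lmFit, then eBayes with its trend option, in R 4.3.3) on log2(FPKM + 1), two-sided, with Benjamini-Hochberg adjustment over all 12968 genes and a threshold of 0.05; no p was adjusted over the transporters alone. The smallest two-sided p of an exact permutation test with 3 libraries in each group is 0.1, so none was used. Alternatives were another pseudocount, other filters, rescaling without mitochondrial-encoded genes, limma voom on recovered fragments, protein-coding genes only, a replicate block and leaving out each library; voom over genes with at least 10 fragments was added after seeing the data. Chi-square per degree of freedom between libraries was 6.04 to 28.6, and all pairs thus differed beyond sampling noise. The fits were tested on simulated fragments. Described in full were members past the threshold or with an unadjusted p under 0.05, the 12 with the highest mean, and SLC7A11, SLC7A1 and SLC7A7; of each list, up to 4 genes past the threshold with the smallest p. The members and the lists (177 symbols, all matched) were chosen with earlier results of these data known. A gene of the lysosomal sensing list is not reported here.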

Additional observations from a re-analysis of the deposited data

How the results depend on the processing

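The number of transporters called lower, 3 as reported, was 0 with no filter on low values, 5 after rescaling without mitochondrial-encoded genes, and 9 with voom on recovered fragments, with voom over all genes with at least 10 fragments, or with protein-coding genes only. Leaving out 1 library at a time gave 0 to 8. The count of transporters called higher was 0 in each of these fits. Over all genes, 152 higher and 118 lower became 0 and 0 with no filter, 412 and 398 with voom, 448 and 506 with voom over genes with at least 10 fragments, and 402 and 285 with protein-coding genes only. Rescaling without mitochondrial-encoded genes gave 117 and 152, which turns the balance between higher and lower. A minimum mean of 5 FPKM gave 237 higher genes, and leaving out 1 library gave 0 to 275 higher and 0 to 440 lower. The cause of these differences was not tested. The median log2 fold change of the tested transporters, -0.120, was -0.158 with a pseudocount of 0.1, -0.032 with no filter (38 members tested), -0.265 with a minimum mean of 5 FPKM (12 members tested), -0.146 after rescaling and -0.162 with voom. Leaving out 1 library gave -0.148 to -0.118. Rescaling moved the median of all genes from 0.01 to -0.01.

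The adjusted p of SLC7A7 ranged from 0.000129 to 0.114 over the alternatives, that of SLC7A11 from 5.17e-05 to 0.114 and that of SLC7A1 from 0.000453 to 0.137. With the replicate number as a block, 0 transporters and 0 genes in either direction passed. Deviations of same-numbered libraries from their group means correlated at -0.364, -0.034 and -0.113, and those of differently numbered libraries at -0.27 to 0.332. With 3 libraries in each group, these values cannot decide whether the numbers pair the samples. Each group has 3 libraries, and genes with a mean under 1 FPKM were not tested.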
